A study of Mus musculus with 9 samples.

Results

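The collagen chain genes are the genes that encode the separate polypeptide chains of the collagens, and they were taken as every gene whose symbol reads Col, a number, the letter a and a number. The rule found 44 of the 25652 genes in the deposited table, and all 44 had enough reads to be tested. They were sorted into 8 fibrillar chains, 6 type VI chains, 6 FACIT chains, 9 basement membrane chains, 7 cartilage chains, 4 transmembrane chains and 4 others. The classes follow known structure, except that the cartilage chains were set apart by tissue. By structure, Col2a1, Col11a1 and Col11a2 are fibrillar chains and Col9a1, Col9a2 and Col9a3 are FACIT chains. Counts and shares of the fibrillar and FACIT classes leave them out. The tissue came from wild-type mice that had been given talc in saline at 2.0 g/kg, as 200 µL placed through the diaphragm into the left chest cavity, and the labels call it adhesion tissue between chest wall and lung, while the protocol describes lung parenchyma attached to the chest. It was collected 30 min (D0), 3 days (D3) and 9 days (D9) after talc, with 3 poly(A)-selected RNA libraries per day. D0 mice had received talc as well and are not untreated controls, and no untreated or saline mice were analysed here. The labels give neither the sex nor the age of the mice, and do not say whether each library is a separate mouse, so the tests below reflect only library-to-library spread, which may be technical.

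Collagen chains wind into a triple helix inside the cell, and the molecules are secreted and assemble outside it. Fibrillar collagens form the load-bearing fibrils of scar and connective tissue: type I and type III make up most of the fibril, and type V chains sit inside it and help set its diameter. FACIT collagens (fibril-associated collagens with interrupted triple helices) coat fibrils, type VI collagen forms fine beaded filaments around cells, and type IV collagen forms the sheet-like network of basement membranes, including the one between alveolar epithelium and capillary.

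Libraries held 12769059 to 18701063 counts. Levels are given as CPM (a gene's counts over its library total, corrected by trimmed-mean or TMM factors), and a change as the log2 fold change of the later day over the earlier. In bulk tissue, fewer cells of a type and less RNA per cell cannot be told apart. The tissue label was checked with marker genes. Skeletal muscle markers summed to 75693 to 100148 CPM at D0, 43698 to 93890 CPM at D3 and 52760 to 66125 CPM at D9. Every library thus held abundant skeletal muscle transcript beside that of lung. Endothelial markers summed to 1846 to 2060 CPM at D0, 707 to 1756 CPM at D3 and 809 to 1226 CPM at D9. For both lists each D9 library lay below each D0 library, and the part of this in the collagen results was not tested. Alveolar type 2 markers summed to 4915 to 5372 CPM at D0, but to 197, 5857 and 142 CPM in D3 replicates 1, 3 and 4 and 691, 2511 and 2780.4 CPM in D9 replicates 1, 3 and 4. D3 replicates 1 and 4 and D9 replicate 1 thus had the lowest alveolar sums of the 9.

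By D9 most fibrillar and type VI chains had risen, while Col4a1 and Col4a2 of the basement membrane did not pass and the cartilage chains varied from library to library. 14 of the 44 members, or 31.8%, were higher at D9 than at D0 at an edgeR adjusted p under 0.05, where 15.2% of the 14794 genes tested were. 2 members were lower at D9, where 5.54% of all genes tested were. The 14 were Col1a2, Col3a1, Col5a1, Col5a2, Col5a3 and Col24a1 of the fibrillar class, Col6a1, Col6a2, Col6a3, Col6a5 and Col6a6 of type VI, Col14a1, Col18a1 and Col8a1, and those lower were Col7a1 and Col17a1. The median log2 fold change of the 44 was 0.96, against 0.01 over all genes tested.

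The same 14 members, 31.8% of the 44, were also higher at D9 than at D3, where 5.19% of all genes tested were, and none was lower, where 3.66% of all genes tested were. DESeq2 and limma-voom also called none lower between these days, and 3 were lower at an unadjusted edgeR p under 0.05. In either direction, 8.85% of all genes tested passed. At D3 against D0, 1 member rose (Col3a1) and 1 fell (Col7a1), below the 12.9% of all genes tested that rose and the 3.29% that fell. An F test for any difference among the days called 17 members, where 25.7% of all genes tested were called. 12 of the 14 chains higher at D9 than at D0 passed without each library in turn, and 8 of the 14 higher at D9 than at D3 did (the others were Col1a2, Col3a1, Col5a1, Col5a3, Col6a5 and Col8a1, with values below). Libraries did not overlap in 23 members at D9 against D0, of which 17 were higher and 6 lower. Among all genes tested, 29.3% were higher and 28.2% lower in this way.

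**Figure D1:**
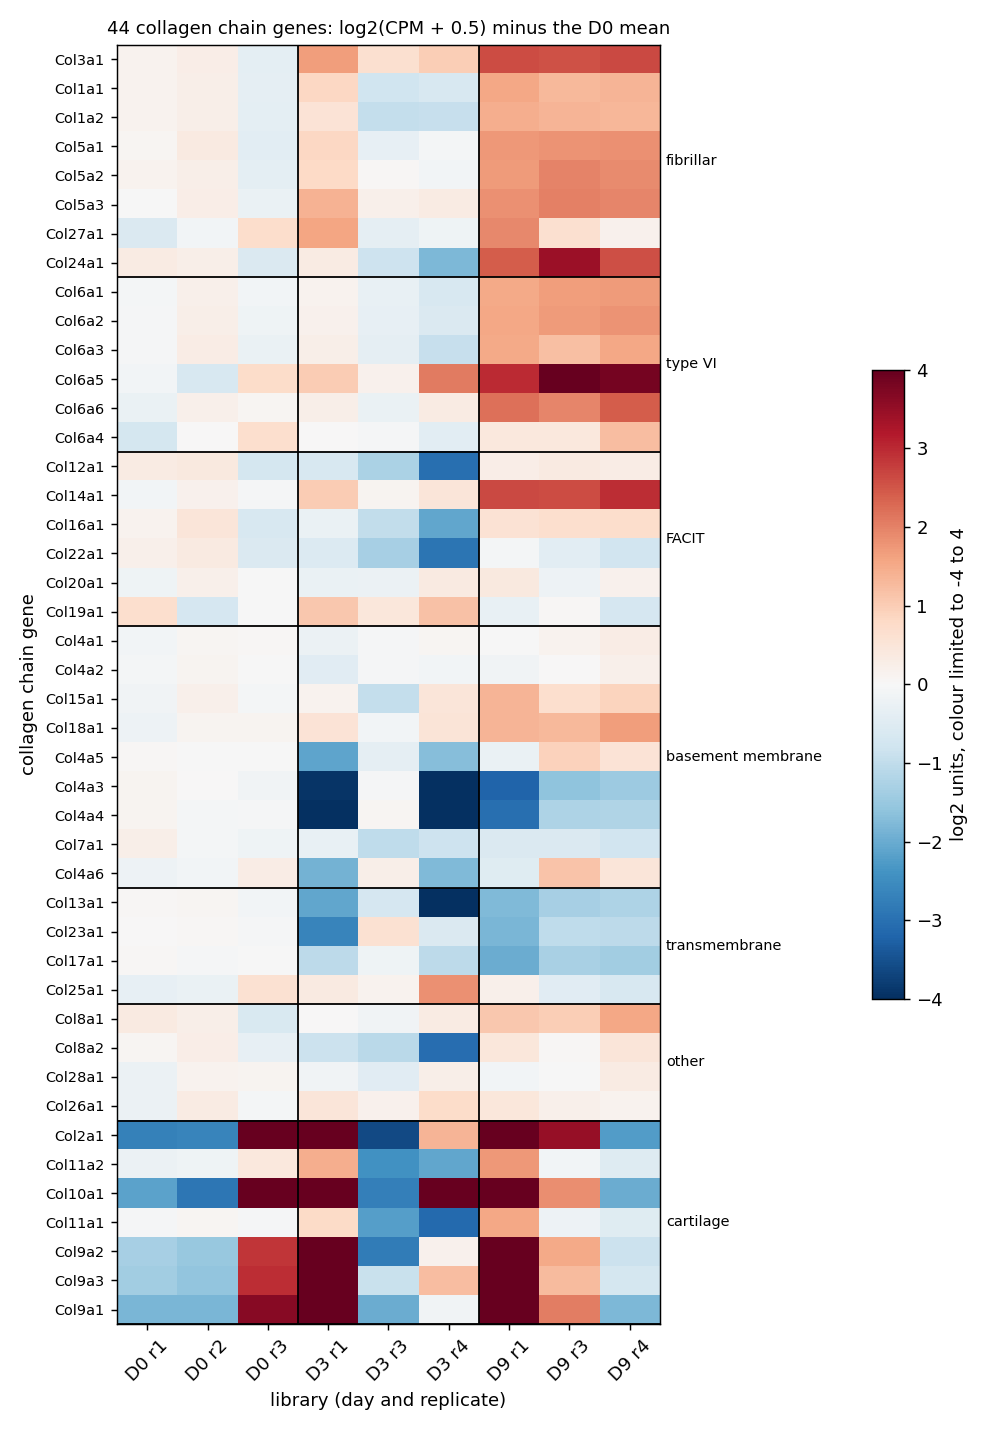
Level of each of the 44 collagen chain genes in each library as log2(CPM + 0.5) minus the mean of the 3 D0 libraries, genes grouped by class and ordered within a class by mean CPM, with colour limited to -4 to 4. Most fibrillar and type VI chains are red in all 3 D9 libraries, and Col4a3, Col4a4 and Col13a1 are blue in D3 replicates 1 and 4. Col2a1, Col10a1 and the type IX chains are red in D0 replicate 3, D3 replicate 1 and D9 replicate 1. They are also red in D9 replicate 3, and Col2a1, Col9a3 and Col10a1 in D3 replicate 4.

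Together the 44 genes took 1.29, 1.43 and 1.1% of all counts in the 3 D0 libraries, 2.11, 1.15 and 0.981% in the D3 libraries and 4, 3.75 and 3.98% in the D9 libraries. Each D9 library was above each earlier one, and D3 replicate 1 stood above the other 5 early libraries. The mean share was 3.91% ± 0.139 at D9 and 1.28% ± 0.165 at D0 (SD, n = 3 each), a 3.06-fold difference with a two-sided exact permutation p of 0.1, the smallest that 3 against 3 libraries can give. At D3 the mean was 1.42% ± 0.61 (SD, n = 3), 0.138 percentage points above D0 with an exact permutation p of 0.9, and without D3 replicate 1 the difference was -0.211 points. Fibrillar chains held 79.9% of collagen counts at D9 and 68.3% at D0, and basement membrane chains 5.73% at D9 and 14.8% at D0.

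**Figure D2:**
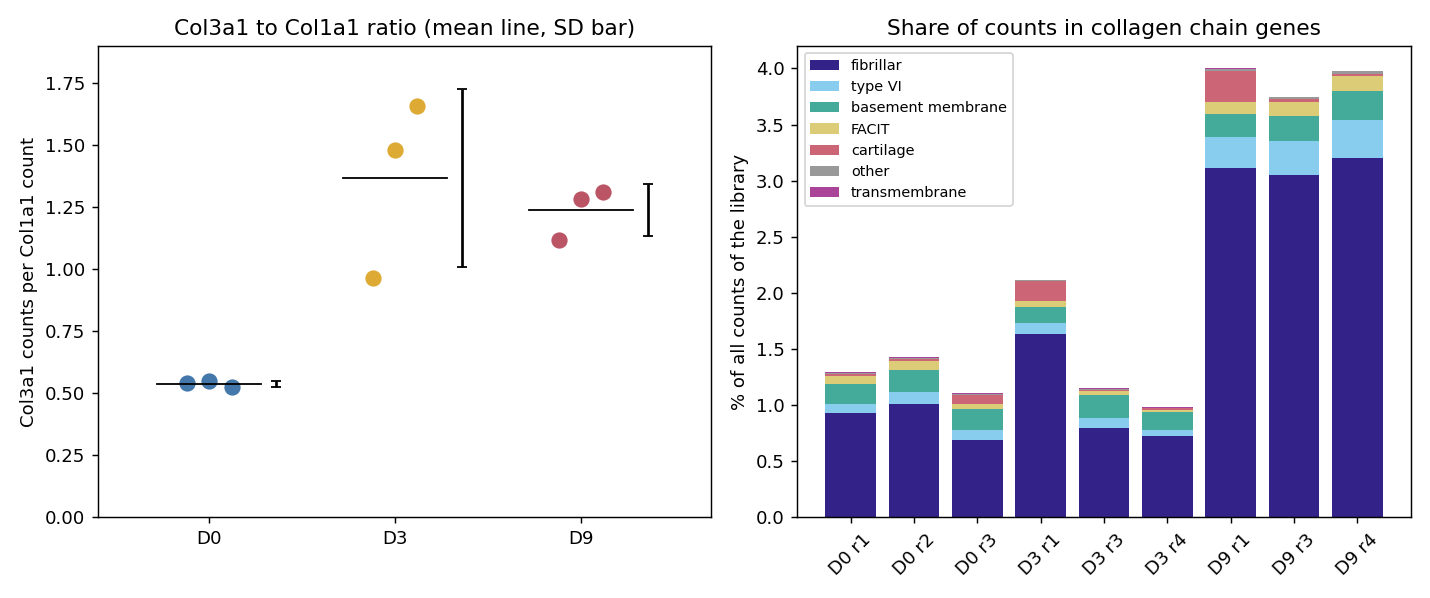
Left, Col3a1 counts per Col1a1 count in each library by day, with the mean as a line and the SD as a bar (n = 3 libraries per day). Right, percent of all counts of each library in collagen chain genes, stacked by class. The 3 D0 ratios sit between 0.524 and 0.548 and the 6 later ones between 0.966 and 1.66, and the D9 bars reach 3.75% to 4%.

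Promoter windows are shown for 5 genes that rose at D9: those of Col3a1 and Col1a2 belong to the fibrillar chains of highest level, that of Col5a3 to a type V chain, and those of Col6a1 and Col6a2 to partner chains whose counts were near equal in every library. Capitals mark matches on either strand to 3 textbook promoter elements, the TATA box (TATAAA), the CCAAT box (CCAAT) and the GC box (GGGCGG, or CCGCCC on the other strand), and no match in the printed windows overlapped another. The sequences are the 250 bases before the most upstream RefSeq start site of each gene on GRCm38.p6, read 5′ to 3′ on the gene's own strand. They lie at chr1:45311288-45311537 (plus strand), chr6:4505368-4505617 (plus strand), chr9:20815068-20815317 (minus strand), chr10:76726045-76726294 (minus strand) and chr10:76623631-76623880 (minus strand). The genes, the elements and the window length were chosen after values had been seen.
Col3a1: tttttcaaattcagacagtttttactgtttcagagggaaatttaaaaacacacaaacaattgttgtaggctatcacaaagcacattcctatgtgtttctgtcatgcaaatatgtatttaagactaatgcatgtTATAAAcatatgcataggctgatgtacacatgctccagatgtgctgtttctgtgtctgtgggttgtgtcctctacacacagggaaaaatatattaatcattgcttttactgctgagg
Col1a2: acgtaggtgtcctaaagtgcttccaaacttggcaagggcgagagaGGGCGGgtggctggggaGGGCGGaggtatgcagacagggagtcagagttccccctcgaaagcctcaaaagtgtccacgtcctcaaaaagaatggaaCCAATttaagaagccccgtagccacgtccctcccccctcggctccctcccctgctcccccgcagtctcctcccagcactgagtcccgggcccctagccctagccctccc
Col5a3: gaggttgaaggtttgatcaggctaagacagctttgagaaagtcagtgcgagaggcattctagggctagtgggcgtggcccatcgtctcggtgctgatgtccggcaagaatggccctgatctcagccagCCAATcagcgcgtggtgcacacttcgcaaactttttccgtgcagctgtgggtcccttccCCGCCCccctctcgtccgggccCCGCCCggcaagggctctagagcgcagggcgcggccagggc
Col6a1: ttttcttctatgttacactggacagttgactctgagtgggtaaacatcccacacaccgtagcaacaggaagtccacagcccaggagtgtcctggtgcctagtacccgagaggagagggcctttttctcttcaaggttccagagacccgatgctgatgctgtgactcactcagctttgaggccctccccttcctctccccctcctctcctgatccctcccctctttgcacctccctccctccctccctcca
Col6a2: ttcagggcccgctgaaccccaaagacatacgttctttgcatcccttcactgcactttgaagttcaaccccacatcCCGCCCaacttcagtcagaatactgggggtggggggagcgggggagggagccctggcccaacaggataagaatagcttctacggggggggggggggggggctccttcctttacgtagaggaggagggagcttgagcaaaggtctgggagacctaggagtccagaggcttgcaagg
The Col3a1 window held 1 TATA box match and no GC box match, and the Col1a2 window held 2 GC box matches and 1 CCAAT box match. The Col5a3 window held 2 GC box matches and 1 CCAAT box match. The Col6a1 window held none of the 3, and that of its partner Col6a2 held 1 GC box match. RefSeq windows were found for 35 of the 44 members, and 21 of them (60.0%) held a GC box match, against 33.0% of 27025 windows in the whole promoter table. Of the 12 windows of members that rose at D9 against D0, 8 held one. A CCAAT box match stood in 12 of the 35 windows (34.3%), against 34.5% of all windows, and a TATA box match in 5 (14.3%), against 13%. A match describes the letters only, whatever its distance from the start site.

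In the fibrillar class, without the cartilage chains, 6 of 8 (75%) rose at D9 against D0, with a median log2 fold change of 1.80. The same number rose against D3. Of all genes tested, 15.2% rose at D9 against D0 and 5.19% against D3. Col3a1, the single chain of type III collagen that is laid down early in granulation tissue, had 1969, 2129 and 1343 CPM at D0, 5651, 2793 and 3503 CPM at D3 and 10766, 10342 and 11039 CPM at D9. The 3 days did not overlap in any library. Col3a1 rose at D3 to 2.2-fold of D0 (log2 fold change 1.13, SE 0.30, edgeR adjusted p = 0.0374) and at D9 to 5.91-fold of D0 (log2 fold change 2.56, SE 0.32, edgeR adjusted p = 0.000928). The D3 call was lost in 12 of 19 alternatives, among them the fits without D0 replicate 1, 2 or 3 (edgeR adjusted p = 0.106, 0.0874 and 0.13), D3 replicate 1 (0.0644) and D9 replicate 1, 3 or 4 (0.0722, 0.0634 and 0.0795). Against D3 it rose at D9 to 2.69-fold (log2 fold change 1.43, SE 0.30, edgeR adjusted p = 0.0258), and the edgeR adjusted p was 0.0534 without D0 replicate 1, 0.051 without D0 replicate 2, 0.0598 without D3 replicate 4, 0.0616 without D9 replicate 1, 0.0659 without D9 replicate 3 and 0.0735 without D9 replicate 4.

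Type I collagen, the main protein of mature scar, is made of Col1a1 and Col1a2 chains. Col1a1 had 3622, 3884 and 2561 CPM at D0, 5853, 1888 and 2110.4 CPM at D3 and 9628, 8063 and 8406 CPM at D9. D3 replicate 1 was above every D0 library and D3 replicates 3 and 4 were below every D0 library, while the D9 libraries were above all others. Col1a1 did not pass at D9 against D0 (log2 fold change 1.37, SE 0.43, edgeR adjusted p = 0.0544) or against D3 (log2 fold change 1.41, SE 0.43, edgeR adjusted p = 0.0788), although its libraries did not overlap in either comparison, and it passed in 7 of 19 alternatives for the first and 5 of 19 for the second. Without D3 replicate 1, 3 or 4 the first adjusted p was 0.00367, 0.02 and 0.0371, and without D3 replicate 1 the second was 0.00662. At D3 against D0 its log2 fold change was -0.03 (SE 0.42, edgeR adjusted p = 0.968).

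Col1a2 had 3371, 3578 and 2351 CPM at D0, 4408, 1579 and 1624 CPM at D3 and 8326, 7905 and 7578 CPM at D9. It kept the order of Col1a1 among the libraries of each early day, and its D9 libraries did not overlap with the earlier ones. It rose at D9 to 2.56-fold of D0 (log2 fold change 1.36, SE 0.41, edgeR adjusted p = 0.0465), close to the threshold. The call was lost without each single D0 library (edgeR adjusted p = 0.121, 0.104 and 0.146 without replicate 1, 2 and 3) and each single D9 library (0.11, 0.107 and 0.104 without replicate 1, 3 and 4). Over all genes tested, these fits called 1381 to 1653 higher at D9 against D0, where the main fit called 2246. The log2 fold change of Col1a2 in these fits was 1.19 to 1.47. Its log2 fold change at D3 against D0 was -0.29 (SE 0.40, edgeR adjusted p = 0.635), and without D3 replicate 1 it was -0.95 with an adjusted p of 0.0312. At D9 against D3 it rose (log2 fold change 1.65, SE 0.41, edgeR adjusted p = 0.0429), and the edgeR adjusted p was 0.0776 without D0 replicate 1, 0.0766 without D0 replicate 2, 0.0629 without D0 replicate 3, 0.0912 without D3 replicate 4, 0.0972 without D9 replicate 1, 0.102 without D9 replicate 3 and 0.1 without D9 replicate 4. The Col1a1 to Col1a2 count ratio was 1.07, 1.09 and 1.09 at D0, 1.33, 1.2 and 1.3 at D3 and 1.16, 1.02 and 1.11 at D9.

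Type III to type I ratios separated D3 from D0. Col3a1 counts per Col1a1 count were 0.544, 0.548 and 0.524 at D0, 0.966, 1.48 and 1.66 at D3 and 1.12, 1.28 and 1.31 at D9, so the 6 later libraries lay above all 3 D0 libraries and the D3 and D9 libraries overlapped. The ratio was 2.48-fold that of D0 at D3 and 2.29-fold at D9, each with a two-sided exact permutation p of 0.1, the smallest that 3 against 3 libraries can give. Between D9 and D3 the log2 ratio differed by -0.11 with an exact permutation p of 0.8, and by 0.05 without D3 replicate 4.

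Type V chains, which join type I in the fibril core, rose at D9. Col5a1 had 356, 437 and 253 CPM at D0, 600.4, 268 and 323 CPM at D3 and 1135, 1185 and 1204 CPM at D9, and its D9 libraries lay above all others. It rose to 3.37-fold of D0 (log2 fold change 1.75, SE 0.32, edgeR adjusted p = 0.00593). Against D3 it rose as well (log2 fold change 1.57, SE 0.32, edgeR adjusted p = 0.0224), and the edgeR adjusted p was 0.0576 without D3 replicate 4, 0.05003 without D9 replicate 1, 0.0592 without D9 replicate 3 and 0.0656 without D9 replicate 4. Col5a2 averaged 1031 ± 104 CPM at D9 and 288 ± 64.7 CPM at D0 (SD, n = 3 each) and rose to 3.58-fold (log2 fold change 1.84, SE 0.27, edgeR adjusted p = 0.00227), and the Col5a2 to Col5a1 count ratio was 0.769 to 1.09 over the 9 libraries. Col5a3, a type V chain of narrower distribution, had 105, 128 and 87.1 CPM at D0, 278, 122 and 132 CPM at D3 and 375, 433 and 413 CPM at D9, with D3 replicate 1 high among the early libraries. It rose at D9 to 3.8-fold of D0 (log2 fold change 1.93, SE 0.32, edgeR adjusted p = 0.00353). Against D3 it rose to 2.3-fold (log2 fold change 1.20, SE 0.31, edgeR adjusted p = 0.0476), and the edgeR adjusted p was 0.0836 without D0 replicate 1, 0.0746 without D0 replicate 2, 0.0675 without D0 replicate 3, 0.108 without D3 replicate 4, 0.084 without D9 replicate 1, 0.123 without D9 replicate 3 and 0.112 without D9 replicate 4.

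Col24a1, the chain of a minor fibrillar collagen known from developing bone and cornea, had the largest fitted fold of its class. It had 13.6, 12.9 and 7.15 CPM at D0, 13.6, 5.88 and 2.74 CPM at D3 and 60, 119.7 and 66.6 CPM at D9, and its D9 libraries did not overlap with the others. It rose at D9 to 7.33-fold of D0 (log2 fold change 2.87, SE 0.55, edgeR adjusted p = 0.00719) and to 11-fold of D3 (log2 fold change 3.46, SE 0.56, edgeR adjusted p = 0.0114). Col27a1, a fibrillar chain known from cartilage, had 23.7, 32.9 and 59.3 CPM at D0, 109, 27.8 and 31.8 CPM at D3 and 137, 56.1 and 40.5 CPM at D9, and was highest in D3 replicate 1 and D9 replicate 1. It did not pass in any comparison.

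Most fibroblast markers rose at D9, as most fibrillar and type VI chains did. Over the 12 markers, which include Dcn, Lum, Dpt and Postn and no collagen, the summed level was 1507 to 1895 CPM at D0, 1125 to 1669 CPM at D3 and 3501 to 4017 CPM at D9. 9 of the 12 (75%) rose at D9 against D0, where 15.2% of all genes tested did. None fell, nor did any in DESeq2, limma-voom or at an unadjusted edgeR p under 0.05. The log2 fold change was positive in 10 of the 12, and the lowest was -1.39. Tcf21 was the 1 marker at 0 in a library (D3 replicate 4). It was lower at D9 (3.26, 11.8 and 9.83 CPM) than at D0 (23.6, 23.2 and 19 CPM). At D3 against D0, 2 of the 12 (16.7%) rose and 2 (16.7%) fell, where 12.9% and 3.29% of all genes tested did. Cthrc1, a marker of matrix-making fibroblasts, had 6.91, 7.3 and 5.91 CPM at D0, 32.6, 11 and 19.2 CPM at D3 and 65.9, 63.6 and 67.1 CPM at D9. The part of fibroblast number in the collagen results was not tested.

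**Figure D3:**
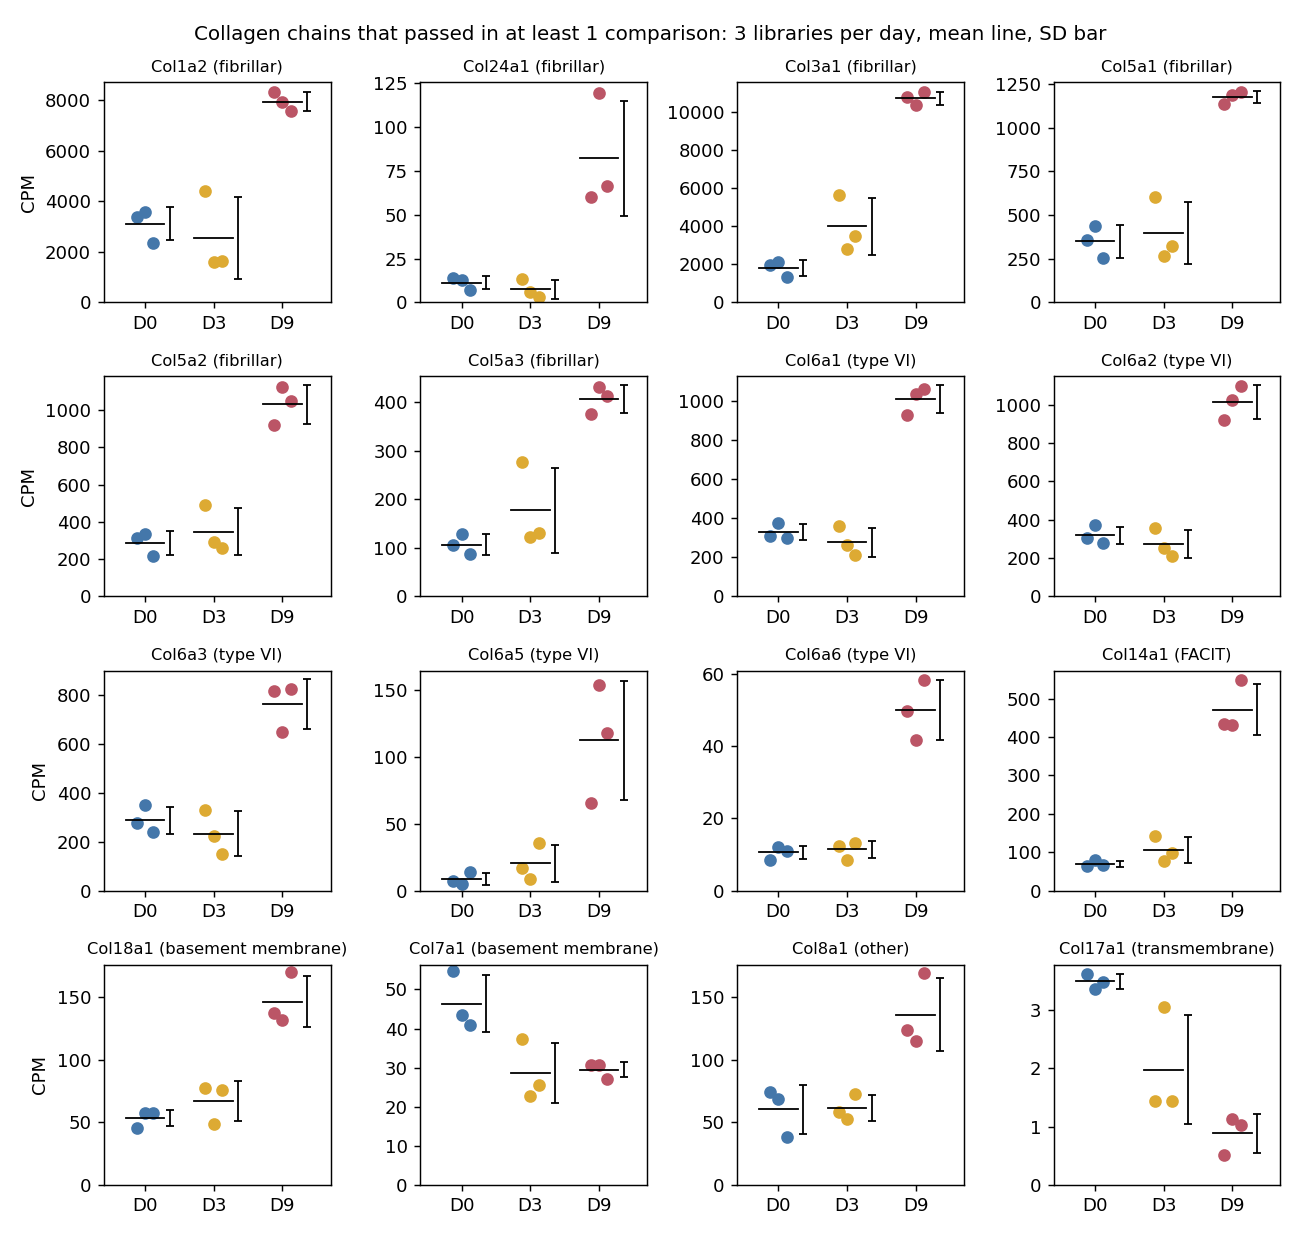
CPM of the 16 collagen chains that passed in at least 1 comparison, 3 libraries per day as points, with the day mean as a line and the SD as a bar on linear axes from 0. In the 14 chains that rose at D9, the 3 D9 libraries lie above all earlier ones, and for Col7a1 and Col17a1 they lie below all D0 libraries.

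Of the type VI chains, 5 of 6 (83.3%) rose at D9 against D0 (median log2 fold change 1.65) and 5 of 6 against D3 (median 1.88). The shares of all genes tested were 15.2% and 5.19%. Col6a1 had 309.6, 374 and 300.3 CPM at D0, 359, 263 and 210.2 CPM at D3 and 930.5, 1039 and 1064 CPM at D9. Its partner Col6a2, which pairs with it in the classical trimer and whose promoter is printed beside it, had 303, 369.8 and 281 CPM at D0, 355, 251 and 211 CPM at D3 and 919.8, 1023 and 1096 CPM at D9. For both, the early libraries overlapped and the D9 libraries stood apart. The Col6a1 to Col6a2 count ratio was 0.971 to 1.07 over all 9 libraries.

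Col6a1 rose at D9 to 3.08-fold of D0 (log2 fold change 1.62, SE 0.21, edgeR adjusted p = 0.00104), and Col6a2 to 3.19-fold (log2 fold change 1.67, SE 0.21, edgeR adjusted p = 0.00105). Col6a3, the longest of the classical chains, averaged 763 ± 101 CPM at D9 and 287 ± 56.4 CPM at D0 (SD, n = 3 each). It rose to 2.66-fold (log2 fold change 1.41, SE 0.29, edgeR adjusted p = 0.00989). The call was lost without D0 replicate 3, D3 replicate 1 and D9 replicate 1 together, the 3 libraries richest in cartilage transcript (log2 fold change 1.24, edgeR adjusted p = 0.0538). That fit had 1 library fewer on each day. With a list of chondrocyte markers as a covariate Col6a3 passed (log2 fold change 1.36, edgeR adjusted p = 0.0162). Both Col6a1 and Col6a2 passed against D0 and against D3 in all 19 alternatives.

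Col6a5 and Col6a6 encode chains that can replace Col6a3 in the trimer, and both started low. Col6a5 had 7.31, 4.87 and 13.5 CPM at D0, 16.5, 8.99 and 35.2 CPM at D3 and 65.6, 154 and 118 CPM at D9, and its fitted rise at D9 against D0 was the largest of the 44, to 13.1-fold (log2 fold change 3.71, SE 0.60, edgeR adjusted p = 0.0032). Its D9 libraries stood above all others and spread widely among themselves. Against D3 it rose to 5.58-fold (log2 fold change 2.48, SE 0.56, edgeR adjusted p = 0.0312), and the edgeR adjusted p was 0.0579 without D0 replicate 1, 0.0836 without D3 replicate 1, 0.0915 without D9 replicate 3 and 0.086 without D9 replicate 4. Col6a6 had 8.6, 12.1 and 11 CPM at D0, 12.3, 8.58 and 13.2 CPM at D3 and 49.9, 41.8 and 58.5 CPM at D9 and rose to 4.74-fold of D0 (log2 fold change 2.24, SE 0.21, edgeR adjusted p = 0.000352), with D0 and D3 libraries overlapping. Col6a4 stayed between 0.234 and 2.26 CPM in the 9 libraries and did not pass.

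Of the 6 FACIT chains outside the cartilage class, 1 (16.7%) rose at D9 against D0, which was Col14a1. This share was near the 15.2% of all genes tested, and the class median log2 fold change was 0.19 against D0. Col14a1, which binds fibril surfaces and decorin, had 64.3, 78.3 and 67.3 CPM at D0, 142, 75.6 and 97.7 CPM at D3 and 434, 431 and 548 CPM at D9. Each D9 library was above each earlier one. It rose to 6.73-fold of D0 (log2 fold change 2.75, SE 0.24, edgeR adjusted p = 0.000251) and 4.49-fold of D3 (log2 fold change 2.17, SE 0.23, edgeR adjusted p = 0.00416), and passed both in all 19 alternatives.

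Col12a1, the FACIT chain of tendon, ligament and other loaded tissue, did not pass. It had 396, 417 and 194 CPM at D0, 202, 133 and 38.6 CPM at D3 and 382, 410.4 and 389 CPM at D9, so the D9 libraries were close to D0 replicates 1 and 2 and above all D3 libraries. Its log2 fold change was 0.23 at D9 against D0 (SE 0.51, edgeR adjusted p = 0.773) and 1.66 against D3 (SE 0.52, edgeR adjusted p = 0.0854), and without D0 replicate 3 the first was -0.05. Col16a1, a FACIT chain of several connective tissues, had 203, 254 and 118 CPM at D0, 151, 91.4 and 42.7 CPM at D3 and 271, 293 and 294 CPM at D9, and was also lowest in D3 replicate 4, with D9 above all earlier libraries. It did not pass against D0 (log2 fold change 0.58, SE 0.42, edgeR adjusted p = 0.352) or D3 (log2 fold change 1.59, SE 0.43, edgeR adjusted p = 0.0547), and passed against D3 without D3 replicate 1 (adjusted p = 0.0275) or 3 (0.0458). Col22a1, a chain of tissue junctions such as muscle to tendon, had 83.3, 93.9 and 48.7 CPM at D0, 49.3, 28.3 and 9.13 CPM at D3 and 67.9, 54.5 and 42.2 CPM at D9, and did not pass. Col19a1 ranged from 0 to 1.29 CPM and Col20a1 from 5.36 to 8.69 CPM over the libraries.

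Of 9 basement membrane chains, 1 (11.1%) rose and 1 (11.1%) fell at D9 against D0, where 15.2% and 5.54% of all genes tested did. Col4a1 and Col4a2, which together form the type IV collagen of nearly all basement membranes, are read head to head from start sites 21 bases apart in RefSeq. Col4a1 had 784, 907 and 872 CPM at D0, 729.7, 828 and 891 CPM at D3 and 838, 949 and 1048 CPM at D9, with all 3 days overlapping. Col4a2 had 594, 666 and 611 CPM at D0, 451, 608 and 583 CPM at D3 and 561, 624 and 710.2 CPM at D9, and its days overlapped too. Neither passed at D9 against D0 (Col4a1 log2 fold change 0.15, SE 0.15, edgeR adjusted p = 0.507, and Col4a2 log2 fold change 0.02, SE 0.16, edgeR adjusted p = 0.943), and the sign for Col4a2 turned in 5 of 19 alternatives, among them DESeq2 size factors (-0.01) and the fits without D0 replicate 1 (-0.02) or D9 replicate 4 (-0.07). The Col4a1 to Col4a2 count ratio was 1.32, 1.36 and 1.43 at D0, 1.62, 1.36 and 1.53 at D3 and 1.49, 1.52 and 1.48 at D9.

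Col18a1, the multiplexin chain whose cleaved end is endostatin, rose. It had 45.6, 57.4 and 56.9 CPM at D0, 77.1, 48.7 and 75.4 CPM at D3 and 137, 132 and 169.6 CPM at D9, with the D9 libraries above all others, and reached 2.74-fold of D0 (log2 fold change 1.46, SE 0.20, edgeR adjusted p = 0.00143). Col15a1, its closest relative, had 119.6, 153 and 125 CPM at D0, 146, 67.4 and 186 CPM at D3 and 342, 209 and 245 CPM at D9. Its D9 libraries did not overlap with earlier ones, but it did not pass against D0 (log2 fold change 1.00, SE 0.34, edgeR adjusted p = 0.0719), and passed without D3 replicate 3 (adjusted p = 0.00766) or 4 (0.0425). Col7a1, the chain of the anchoring fibrils under epithelia, fell. It had 54.7, 43.6 and 41 CPM at D0, 37.4, 22.7 and 25.6 CPM at D3 and 30.6, 30.7 and 27.2 CPM at D9, each later library being below each D0 library.

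The fall of Col7a1 was to 0.635-fold of D0 at D9 (log2 fold change -0.65, SE 0.19, edgeR adjusted p = 0.0444) and 0.617-fold at D3 (log2 fold change -0.70, SE 0.19, edgeR adjusted p = 0.0432). The D9 call was lost without D0 replicate 1, 2 or 3 (edgeR adjusted p = 0.16, 0.0923 and 0.0659) and D9 replicate 1, 3 or 4 (0.0943, 0.103 and 0.138). The log2 fold change in these fits was -0.74 to -0.52. The D3 call was lost without D0 replicate 1, 2 or 3 (0.148, 0.0962 and 0.0749), D3 replicate 4 (0.106) and D9 replicate 1, 3 or 4 (0.0519, 0.0699 and 0.0576).

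The Col4a3 and Col4a4 chains, which join Col4a5 in the specialised network of lung alveoli and kidney glomeruli, varied strongly between libraries of the same day. Col4a3 had 84.1, 77.8 and 70.8 CPM at D0, 4.61, 74.7 and 2.74 CPM at D3 and 7.9, 25.2 and 27.9 CPM at D9, and Col4a4 had 75.4, 67 and 68.2 CPM at D0, 2.18, 74.2 and 3.04 CPM at D3 and 8.26, 29.6 and 30.2 CPM at D9. Both were at D0 level in D3 replicate 3, nearly absent in D3 replicates 1 and 4, and low in D9 replicate 1, and the alveolar type 1 markers summed to 479, 1857 and 541 CPM in D3 replicates 1, 3 and 4 and 549, 983 and 1039 CPM in D9 replicates 1, 3 and 4, against 1834 to 1979.5 CPM at D0. No marker of the alveolar type 1 or type 2 list was at 0 in any library. Neither chain passed at D9 against D0 (Col4a3 log2 fold change -1.93, SE 1.06, edgeR adjusted p = 0.231, and Col4a4 log2 fold change -1.62, SE 1.13, edgeR adjusted p = 0.333), although D9 libraries lay below all D0 libraries. Without D3 replicate 3 the adjusted p was 0.00875 for Col4a3 and 0.0178 for Col4a4. In a fit with the alveolar type 2 list mean as a covariate, Col4a3 had a log2 fold change of -0.90 (edgeR adjusted p = 0.000827) and passed. Col4a4 had one of -0.53 and did not pass (edgeR adjusted p = 0.115). The list mean was 5.45, 6.91 and 7.08 in the D9 libraries and 7.72 to 7.80 at D0, so the covariate changed with the day. This fit cannot separate lung content from day, and the part of lung content in these values was not tested. Col4a5 had 55.8, 53.6 and 53.9 CPM at D0, 12.3, 42.5 and 16.3 CPM at D3 and 45.4, 103 and 79 CPM at D9 and Col4a6 ranged from 2.49 to 23.8 CPM over the libraries, and neither passed.

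The 4 transmembrane chains stay anchored in the cell surface. Of these, 1 (25%) fell at D9 against D0, where 5.54% of all genes tested did (class median log2 fold change -1.36). Col17a1, the hemidesmosome collagen that anchors epithelia, had 3.63, 3.37 and 3.49 CPM at D0, 1.43, 3.06 and 1.45 CPM at D3 and 0.507, 1.13 and 1.02 CPM at D9. Its D9 libraries lay below all D3 and D0 libraries, and it fell to 0.257-fold of D0 (log2 fold change -1.96, SE 0.42, edgeR adjusted p = 0.013). Airway epithelium markers summed to 4980 to 5272 CPM at D0. In replicates 1, 3 and 4 they summed to 105, 7222 and 66 CPM at D3 and 215, 1589 and 1764 CPM at D9. The part of lung epithelial content in Col17a1 was not tested. The call passed without each single library. Without D0 replicate 3, D3 replicate 1 and D9 replicate 1 together, the 3 libraries richest in cartilage transcript, the edgeR adjusted p was 0.0923. That fit had 1 library fewer on each day, and the log2 fold change was -1.70.

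Col13a1, known from the neuromuscular junction and from lung, had 55.7, 56.9 and 49.4 CPM at D0, 12.3, 33.4 and 2.59 CPM at D3 and 15.6, 21 and 22.8 CPM at D9, and Col23a1 had 32.1, 32.6 and 30.9 CPM at D0, 4.73, 49.4 and 21.1 CPM at D3 and 8.62, 15.5 and 15.2 CPM at D9. Both were lower in every D9 library than in every D0 library. Col13a1 was lowest in D3 replicate 4 and Col23a1 in D3 replicate 1, and the part of lung content in either was not tested. Neither passed (Col13a1 log2 fold change -1.45, SE 0.66, edgeR adjusted p = 0.154, and Col23a1 log2 fold change -1.28, SE 0.65, edgeR adjusted p = 0.196). Col13a1 passed without D3 replicate 3 (adjusted p = 0.0292) or 4 (0.0164), and Col23a1 without D3 replicate 1 (0.0304). Col25a1 stayed between 0.728 and 6.24 CPM.

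Cartilage chains spread widely among libraries of the same day, and none of the 7 passed in edgeR, DESeq2 or limma-voom in any comparison, nor at an unadjusted edgeR p under 0.05. Col2a1, the main fibril chain of cartilage, had 0.761, 0.812 and 335 CPM at D0, 857, 0.176 and 20.4 CPM at D3 and 1269, 92.3 and 1.24 CPM at D9. It was high in D0 replicate 3, D3 replicate 1 and D9 replicate 1, intermediate in D9 replicate 3 and D3 replicate 4, and near 0 in the other 4 libraries. Col10a1, the chain of hypertrophic cartilage that is turning to bone, had 0.351, 0 and 121 CPM at D0, 381, 0.0588 and 68.3 CPM at D3 and 569.7, 13.1 and 0.437 CPM at D9, high in the same 3 libraries and also in D3 replicate 4. The SE of the log2 fold change at D9 against D0 was 2.76 for Col2a1 (log2 fold change 2.02, edgeR adjusted p = 0.629) and 2.67 for Col10a1 (2.26, edgeR adjusted p = 0.57), and without D9 replicate 1 the sign of both turned, to -1.26 and -2.55.

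The type IX chains Col9a1, Col9a2 and Col9a3, which coat type II fibrils, followed the same libraries. Col9a1 had 0.0585, 0.0624 and 24.4 CPM at D0, 65.3, 0 and 1.29 CPM at D3 and 114, 7.74 and 0.0728 CPM at D9. The 10 chondrocyte markers, which include Acan, Comp and Sox9 and no collagen, summed to 41, 56.4 and 199.9 CPM at D0, 592, 25.3 and 136 CPM at D3 and 576, 61.5 and 32.2 CPM at D9. Matn1, a defining cartilage matrix protein, was at 0 in D0 replicates 1 and 2, D3 replicate 3 and D9 replicate 4, the 4 libraries with Col2a1 near 0. With the chondrocyte list as a covariate, 13 of the 14 chains remained higher at D9 against D0 and both lower chains remained lower, and Col1a2 did not pass (edgeR adjusted p = 0.0643). Without D0 replicate 3, D3 replicate 1 and D9 replicate 1 together, 12 of the 14 remained higher and Col1a1 passed (edgeR adjusted p = 0.049997). Col6a3 (0.0538), Col8a1 (0.0783), Col7a1 (0.0562) and Col17a1 (0.0923) then did not pass. Their log2 fold changes in that fit were 1.24, 0.99, -0.77 and -1.70, against 1.41, 1.17, -0.65 and -1.96 in the main fit. The fit had 1 library fewer on each day. Over all genes it called 1072 higher and 272 lower at D9 against D0, where the main fit called 2246 and 820.

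Col11a1 and Col11a2, minor fibrillar chains that cartilage shares with bone, did not follow Col2a1 in full. Col11a1 had 84.1, 91.5 and 83.5 CPM at D0, 147, 18.2 and 9.51 CPM at D3 and 251, 75.4 and 61.5 CPM at D9, and Col11a2 had 87.1, 91.8 and 138 CPM at D0, 281, 18.9 and 24 CPM at D3 and 345, 95.4 and 72.8 CPM at D9. Both were well detected in D0 replicates 1 and 2, where Col2a1 was near 0, and both were lowest in D3 replicates 3 and 4. The 7 bone cell markers, among them Bglap and Ibsp, summed to 324, 291 and 191 CPM at D0, 151, 75.7 and 14.7 CPM at D3 and 248, 193 and 151 CPM at D9, lowest in D3 replicates 3 and 4. In D3 replicate 4, 2 of the 7 were at 0.

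**Figure D4:**
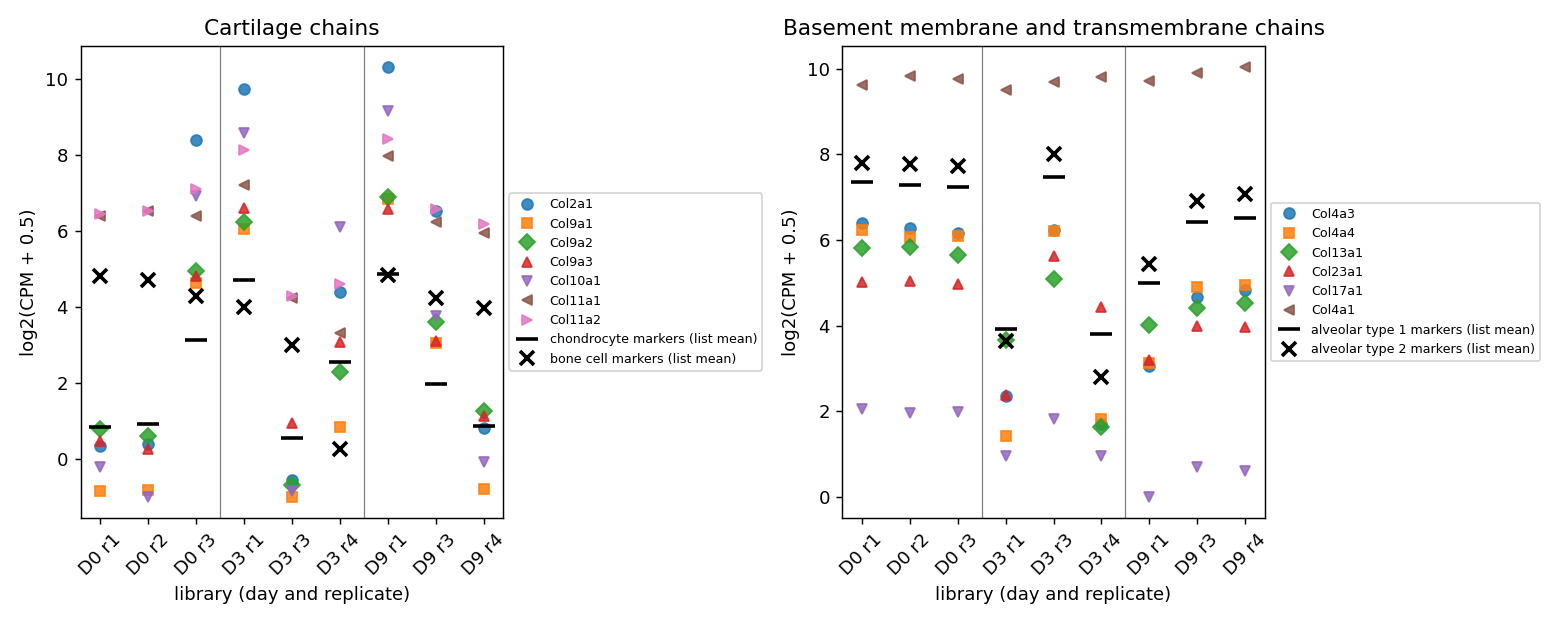
Each library's log2(CPM + 0.5) for the 7 cartilage chains (left) and for 6 basement membrane and transmembrane chains (right), with the mean of the chondrocyte and bone lists or of the alveolar type 1 and type 2 lists in black. Col2a1, Col9a1, Col9a2, Col9a3 and Col10a1 are high where the chondrocyte list is high, Col4a3 and Col4a4 are low where the alveolar lists are low, and Col4a1 stays at the top of the right panel throughout.

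Of the other 4 chains, 1 (25%) rose at D9 against D0, where 15.2% of all genes tested did. This was Col8a1, a short network chain of vessel walls. It had 74.5, 68.4 and 37.9 CPM at D0, 57.9, 52.5 and 72.6 CPM at D3 and 124, 115 and 169 CPM at D9, with D9 above all earlier libraries. It reached 2.26-fold of D0 (log2 fold change 1.17, SE 0.27, edgeR adjusted p = 0.0157). This call was lost without D9 replicate 4 (log2 fold change 0.99, edgeR adjusted p = 0.0607) and without the 3 cartilage-rich libraries together (0.99, 0.0783). Against D3 it rose too (log2 fold change 1.16, SE 0.27, edgeR adjusted p = 0.0327), and the edgeR adjusted p was 0.0584 without D0 replicate 2, 0.0813 without D3 replicate 1, 0.0613 without D9 replicate 1, 0.0585 without D9 replicate 3 and 0.0977 without D9 replicate 4. Its partner Col8a2 had 36.5, 42 and 27.5 CPM at D0, 18.8, 16.3 and 3.8 CPM at D3 and 48.2, 36 and 48.5 CPM at D9, lowest in D3 replicate 4. Col8a2 had a log2 fold change of 1.76 at D9 against D3 (SE 0.48, edgeR adjusted p = 0.0549), which passed without D3 replicate 3 (0.0282) or 4 (0.0185). Col26a1 and Col28a1 stayed between 1.17 and 5.17 CPM.

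Levels of different genes were set side by side as CPM per kb of the principal transcript. At D0 the order of day means was Col1a2 (579.7 CPM per kb), Col1a1 (566), Col3a1 (326), Col4a1 (129), Col4a2 (96.7), Col6a2 (80.5) and Col6a1 (80). At D9 it was Col3a1 (1926 CPM per kb), Col1a2 (1484), Col1a1 (1467), Col6a2 (257), Col6a1 (247), Col5a2 (156) and Col4a1 (143). At D9 the mean of Col3a1 stood above both type I chains, and those of Col6a1 and Col6a2 above Col4a1. The Col6a1 to Col4a1 count ratio, added after values had been seen, was 0.395, 0.412 and 0.345 at D0, 0.492, 0.318 and 0.236 at D3 and 1.11, 1.09 and 1.02 at D9. At D0 and at D9 the neighbours Col1a1 and Col1a2 overlapped between libraries in CPM per kb, as did Col6a1 and Col6a2. Col4a2 and Col6a2 overlapped at D0, and Col5a2 and Col4a1 at D9.

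**Figure D5:**
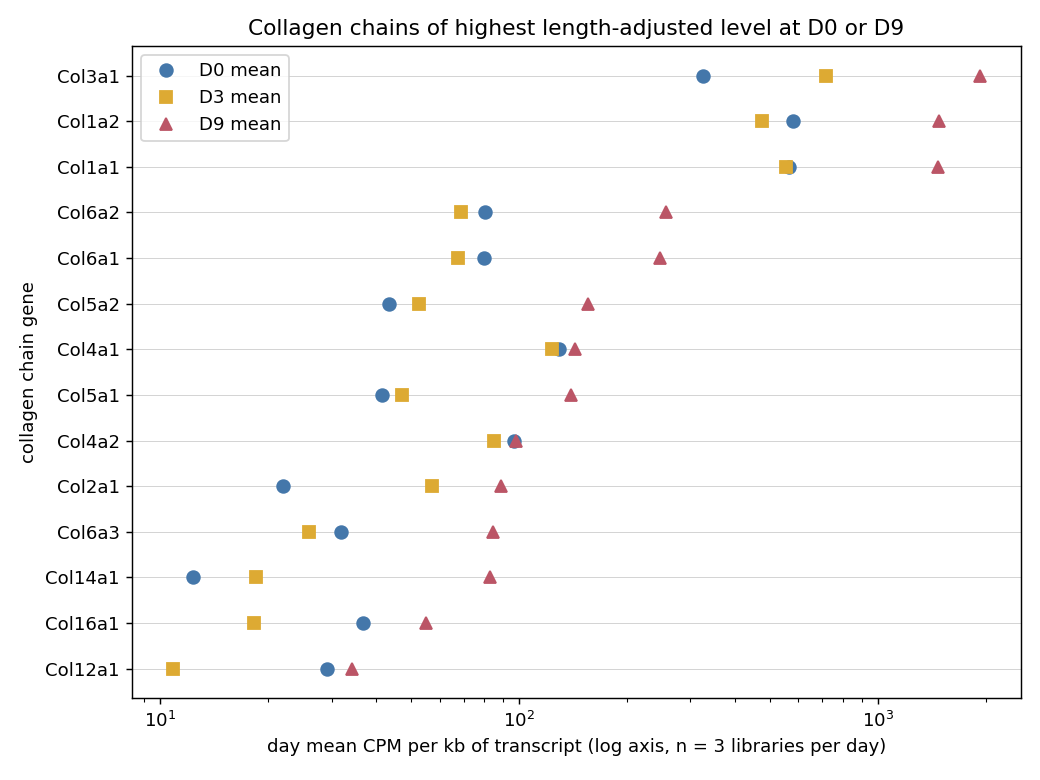
Day mean CPM per kb of transcript on a log axis for the chains among the 12 highest at D0 or D9, ordered by D9 level, with 3 libraries per mean. Col3a1 stands at 326 at D0, 716 at D3 and 1926 at D9, while the 3 points of Col4a1 lie between 123 and 143.

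Genes that fold, modify and crosslink collagen rose as well, some already at D3. Of 30 such enzymes and chaperones, 22 (73.3%) rose at D9 against D0, where 15.2% of all genes tested did, and none fell (0 in DESeq2, 1 in limma-voom and 1 at an unadjusted edgeR p under 0.05), with a median log2 fold change of 1.12. 11 of the 30 (36.7%) rose at D3 against D0, where 12.9% of all genes tested did, and 11 (36.7%) at D9 against D3, where 5.19% did. The 4 of smallest adjusted p at D9 against D0 were Loxl1, Plod3, Colgalt1 and Ppib.

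Loxl1, a lysyl oxidase that crosslinks fibrils and elastin, had 86.2, 101 and 88.1 CPM at D0, 115, 88.8 and 127 CPM at D3 and 264, 298 and 349 CPM at D9, with D9 above all others (log2 fold change 1.72 against D0, SE 0.17, edgeR adjusted p = 0.000387). Plod3, a lysyl hydroxylase, had 59.2, 56.2 and 57.8 CPM at D0, 103, 88 and 99.2 CPM at D3 and 107, 105 and 104 CPM at D9. It was already up at D3 (log2 fold change 0.74, edgeR adjusted p = 0.00177), as were Colgalt1, which adds galactose to collagen (0.76, 0.00623), and Ppib, a prolyl isomerase of the folding complex (0.68, 0.0032). At D9 against D0 the log2 fold changes were 0.87 for Plod3, 1.14 for Colgalt1 and 0.87 for Ppib, and all 4 enzymes passed in 19 of 19 alternatives.

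Of 10 collagen receptors, 2 (20%) rose at D9 against D0, a share near the 15.2% of all genes tested, and none fell (1 in DESeq2, 0 in limma-voom and 1 at an unadjusted edgeR p under 0.05, median log2 fold change 0.19). Lair1, an inhibitory collagen receptor of leukocytes, had 3.8, 3.31 and 4.78 CPM at D0, 14.8, 12.6 and 21.6 CPM at D3 and 30.5, 17 and 27.2 CPM at D9, and rose at D9 (log2 fold change 2.65, SE 0.29, edgeR adjusted p = 0.000589). The 8 macrophage markers summed to 1300.0 to 1783 CPM at D9 and 280.5 to 365 CPM at D0, and their part in Lair1 was not tested. Mrc2, an endocytic receptor that clears collagen fragments, rose at D9 (log2 fold change 0.62, SE 0.18, edgeR adjusted p = 0.0417). This call was lost without D0 replicate 1, 2 or 3 (edgeR adjusted p = 0.13, 0.0563 and 0.136) and D9 replicate 1, 3 or 4 (0.0767, 0.108 and 0.122). The log2 fold change in these fits was 0.53 to 0.74.

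The authors' deposited table called more collagen chains from the same libraries. At an FDR p under 0.05, the authors' deposited table had 16 chains higher and 4 lower at D9 against D0, 20 higher and none lower at D9 against D3, and 2 higher and 7 lower at D3 against D0. It held all 14 chains higher at D9 in each comparison here and added Col1a1 and Col15a1 to both. Of the 2 chains lower at D9 against D0 here, the authors' deposited table called Col17a1 and not Col7a1 (FDR p = 0.0591), and it also called Col4a3, Col13a1 and Col23a1 lower. For Col1a1 at D9 against D0 the authors' deposited table gave a log2 fold change of 1.37 and an FDR p of 0.0056, against 1.37 and 0.0544 in the edgeR quasi-likelihood test (adjusted p).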

How the data were processed

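RNA from 9 libraries, 3 per day, was sequenced after poly(A) selection, per the labels' protocols. The authors deposited 1 table with a raw read count per gene and library, reads-per-library-size (RPM) columns headed RPKM and TPM that were checked to carry no length scaling, and, per the file headers, their own log2 fold changes and FDR p-values. The per-million columns were used only to check their scale, and the authors' log2 fold changes and p-values are quoted once. Aligner, counter and strand setting: not given in the sources used here. Overlapping genes may therefore share reads. GRCm38 and mm10 are named in the submitters' processing notes. Only 551 of 25597 identifiers had their table position in GENCODE M21, so no table coordinates are used. GENCODE M21 gave transcript lengths and RefSeq (GRCm38.p6) the promoter windows.

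Counts were tested with edgeR 4.0.16 in R 4.3.3: filterByExpr by day kept 14794 genes, TMM factors lay between 0.906 and 1.15, and a quasi-likelihood F test (two-sided) was fitted to all 9 libraries, 1 mean per day, with 6 residual degrees of freedom. Benjamini-Hochberg adjustment ran over all genes tested, with a threshold of 0.05. Log2 levels used an offset of 0.5 CPM. Limma 3.58.1 (voom) and DESeq2 1.42.0 were alternatives, 19 in all. Ratios and shares were tested by exact permutation (scipy 1.17.1). The fit was tested on simulated data with known changes. Library totals of 12769059 to 18701063 counts set the counting precision. Within a day, the chi-square per degree of freedom between libraries was 8.35 to 147, so each library counted once.

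Members and lists were chosen with earlier results of these data known. By rule, values per library are given for chains that passed in any comparison and for the 2 of highest level in each class, and 4 genes per pathway list by smallest adjusted p. Values of other chains, the printed promoters, the motifs and the Col6a1 to Col4a1 and Col5a2 to Col5a1 ratios were chosen after values were seen. 18 per-library columns were not used.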

Additional observations from a re-analysis of the deposited data

How the results depend on the processing

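Of the 32 called results on single chains, none changed sign in any of 19 alternatives. None was lost under DESeq2 size factors, total counts without a scale factor, DESeq2 or limma-voom, 1 without the low-count filter or with the alveolar type 2 covariate, 2 with the chondrocyte covariate, 10 without the 3 cartilage-rich libraries together (D0 replicate 3, D3 replicate 1 and D9 replicate 1), 11 when only the 2 days compared were fitted, 16 with the replicate block, and 0 to 11 without single libraries. At D3 against D0, where 1 chain was higher and 1 lower, none was higher in the 2-day fit, with either covariate or without the cartilage-rich libraries, and 0 to 5 were higher without single libraries. The number lower at D3 was 7 under DESeq2, 3 under limma-voom, 0 in the 2-day fit, 2 with either covariate, 3 without the cartilage-rich libraries and 0 to 8 without single libraries (6 without D3 replicate 1 and 8 without D3 replicate 3, where 5 were higher). At D9 against D0, 14 chains were higher (12 to 17 in all alternatives) and 2 lower, the number lower being 6 in the 2-day fit, 0 without the cartilage-rich libraries and 1 to 5 without single libraries. At D9 against D3, 14 were higher, 5 in the 2-day fit and 8 to 21 without single libraries. The number lower was 0, and 2 with the alveolar type 2 covariate. Counts over all genes tested moved as well. Those higher at D9 against D3 numbered 768 in the main fit, 167 in the 2-day fit and 270 to 2450 without single libraries. Those lower at D3 against D0 numbered 486, and 1227 under DESeq2, 613 without D3 replicate 1 and 2624 without D3 replicate 3. Those higher at D9 against D0 numbered 2246, and 1381 to 1653 without single D0 or D9 libraries. Those lower at D9 against D0 numbered 820, 3014 in the 2-day fit and 273 to 392 without single D0 or D9 libraries. The F test for any difference called 17 chains, and 12 to 24 in alternatives added after seeing the data, as were those of the enzyme and receptor genes.

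Deviations of same-numbered libraries from their day mean correlated at -0.24 to 0.47 over 7 pairs, and those of differently numbered libraries at -0.59 to 0.52. With so few libraries per day, this check cannot exclude a pairing or a shared batch. With the replicate number as a block (replicate block), 12 chains were higher and 0 lower at D9 against D0. There were 4 higher at D9 against D3, and 0 higher and 0 lower at D3 against D0. Over all genes tested, the block left 777 higher and 123 lower at D9 against D0, where the main fit had 2246 and 820. It left 82 higher at D9 against D3 and 186 higher at D3 against D0, where the main fit had 768 and 1904.

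Signs that turned belonged to results that had not passed. The log2 fold change of Col4a2 at D9 against D0 was -0.0145 under DESeq2 size factors and DESeq2, -0.0096 with the block, -0.0164 without D0 replicate 1 and -0.072 without D9 replicate 4. Without single libraries it reached at most 0.096. That of Col2a1 was -0.84 with the block, -3.03 with the alveolar type 2 covariate and -1.26 (without D9 replicate 1) to 9.16 (without D0 replicate 3) without single libraries. That of Col10a1 was -2.12 with the block, -4.86 and -0.30 with the alveolar type 2 and chondrocyte covariates and -2.55 (without D9 replicate 1) to 10.01 (without D0 replicate 3) without single libraries. That of Col12a1 was -0.0285 without the cartilage-rich libraries and -0.0456 (without D0 replicate 3) to 0.416 without single libraries. Col1a1 at D3 against D0 was 0.0745 with the block, -0.746 without D3 replicate 1 and 0.03, 0.09, 0.18 and 0.21 without D0 replicate 1, D0 replicate 2, D3 replicate 3 and D3 replicate 4. The collagen share at D3 minus D0 ran from -0.211 (without D3 replicate 1) to 0.355 percentage points without single libraries, and the log2 Col3a1 to Col1a1 ratio at D9 minus D3 from -0.343 to 0.047. With muscle and mitochondrial genes out of the denominator, the share at D9 minus D0 was 2.92 percentage points, against 2.63. Total counts without a scale factor moved the median log2 fold change of all genes at D9 against D0 to 0.11. The cause of these changes was not tested. With 3 libraries per day, a difference that did not pass is not shown to be absent.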
